A study of Mus musculus with 6 samples.

Results

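Eicosanoids are lipid signals that cells make from arachidonic acid. Cyclooxygenases start the path to prostaglandins and prostacyclin, and 5-lipoxygenase starts the path to leukotrienes. Each lipid acts through G protein-coupled receptors. In the lung, prostaglandin D2 and the cysteinyl leukotrienes, which mast cells release, are known to attract and activate group 2 innate lymphoid cells (ILC2s), the tissue lymphocytes that make IL-5 and IL-13. Prostaglandin E2 and prostacyclin raise cyclic AMP and are known to restrain them. The 9 genes described here were taken by name: 6 receptors (Ptgdr2, Ptgir, Ptger2, Ptger4, Cysltr1 and Ltb4r1) and 3 proteins of synthesis (Hpgds, Alox5 and Alox5ap). All 9 were among the 21825 genes in the deposited count table, and 8 had enough counts to be tested.

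The 6 RNA-seq libraries were made from lung ILC2s of BALB/c mice 6 weeks old, purified by sorting. All of the mice had been injected intraperitoneally 3 times with recombinant IL-33, 1 µg at a time, a cytokine that expands and activates ILC2s. After sorting, all cells were cultured for 48 h with IL-7 and IL-2, both at 10 ng/mL, and with TNFa at 40 ng/mL (3 libraries, replicates 4 to 6) or with PBS as its vehicle (3 libraries, replicates 1 to 3). The question was how TNFa changed the ILC2 transcriptome. The labels do not say whether libraries came from separate animals or cultures, and p-values therefore reflect only how these libraries spread, which may be technical. PBS replicate 2 is labelled as a repeat.

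Totals were 25089415 to 32487004 estimated counts per library with TNFa and 29185442 to 30908757 with PBS. TNFa replicate 5 stood apart, with a mean correlation with the other libraries of 0.949, against 0.964 to 0.967 for each of the rest. Gata3 and Il1rl1, picked from 15 ILC2 markers, were present throughout. Gata3, the transcription factor ILC2s depend on, averaged 705 ± 52.1 CPM (counts per library scaled for depth) with TNFa and 978 ± 71.8 with PBS (SD, n = 3 each). Il1rl1, the IL-33 receptor, averaged 425 ± 49.8 CPM with TNFa and 616 ± 64.9 with PBS. Tcf7, another of the 15, was scarce, at 1.52 ± 1.49 CPM with TNFa and 2.02 ± 1.09 with PBS. Over all genes, 16 of 15719 tested, or 0.102%, passed an adjusted p of 0.05 in the quasi-likelihood test of edgeR, adjusted by the Benjamini-Hochberg method.

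Among these genes most of the transcript was that of receptors. Measured per kilobase of exon, so that genes of different length can be set side by side, the 5 tested receptors held 95.9% of the summed level of the 8 tested genes. That share covers the 8 genes only. Other genes of the synthesis lists are not in it, such as Ptges3 and Cotl1, with means over 6 libraries of 134 and 90.8 CPM per kilobase. None of the 8 passed the test for TNFa. The nearest were 3 genes with lower values in every TNFa library than in any PBS library, a pattern that 8.35% of all tested genes had: the leukotriene B4 receptor gene Ltb4r1, the 5-lipoxygenase gene Alox5 and the prostaglandin D2 synthase gene Hpgds. The transcript of Ptgdr2, the gene of the prostaglandin D2 receptor CRTH2, was at or near 0 in all 6 libraries.

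**Figure D1:**
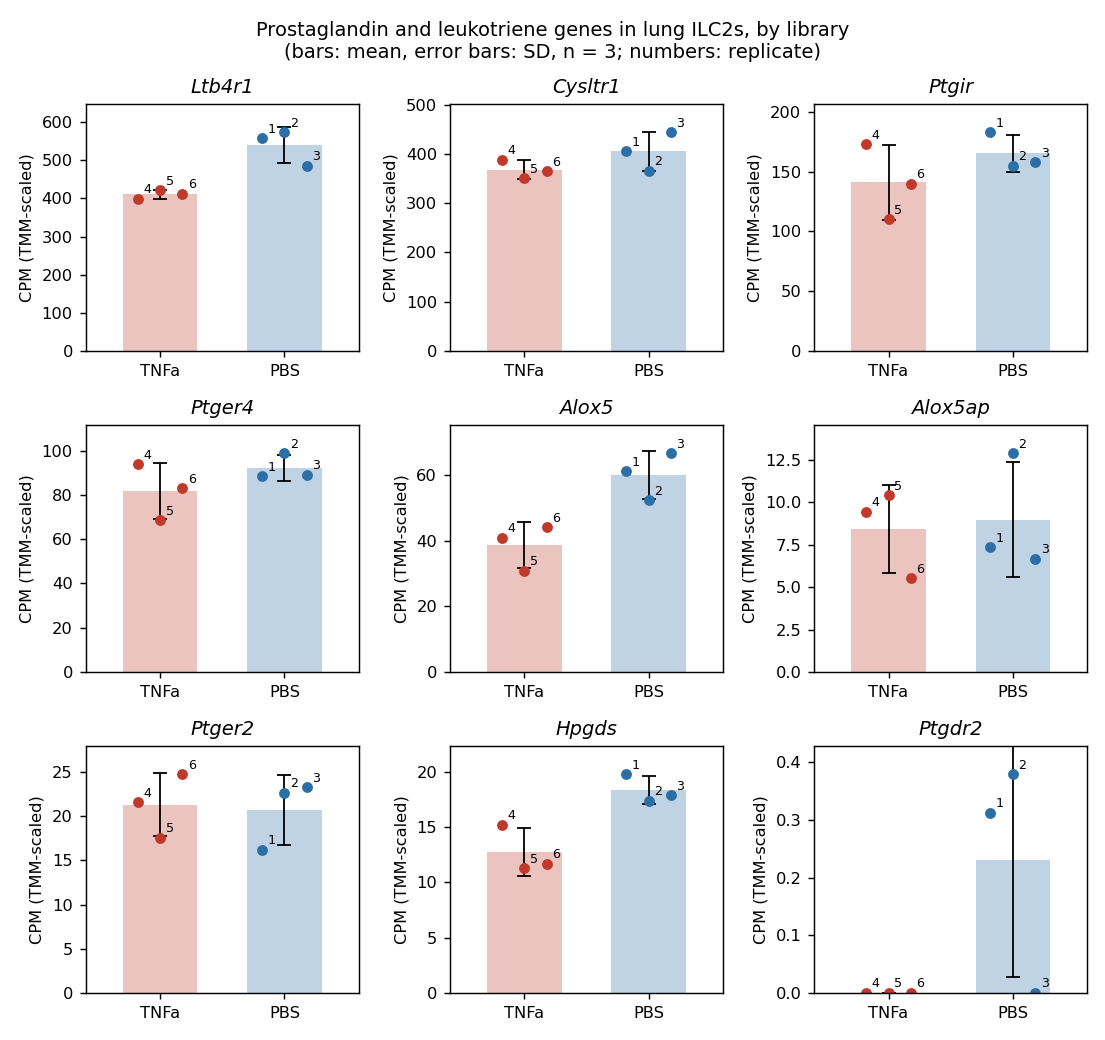
Level of each of the 9 genes in TMM-scaled CPM (y axis, from 0) in TNFa (red, left) and PBS libraries (blue, right). Points are single libraries marked with their replicate number, bars are means and error bars SD (n = 3 each). The groups do not overlap for Ltb4r1, Alox5 and Hpgds, and Ptgdr2 stays at or below 0.38 CPM.

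Ltb4r1 stood at 295 ± 8.43 CPM per kilobase with TNFa and 387 ± 33.3 with PBS (SD, n = 3 each), which placed it 168th among 15629 tested genes with a known length. Cysltr1 followed at 71.5 ± 3.66 and 78.8 ± 7.60 CPM per kilobase, and Ptgir at 42.3 ± 9.35 and 49.5 ± 4.56. These 3 did not overlap with each other or with the next gene in any pair of libraries. Ptger4 was at 12.3 ± 1.90 and 13.9 ± 0.882 CPM per kilobase with TNFa and PBS, and Alox5 at 9.42 ± 1.69 and 14.6 ± 1.78. These 2 overlapped, Ptger4 being the higher in 4 of 6 libraries; divided by the longest transcript in place of all exons, their means over 6 libraries were 23.1 and 13.8. Alox5 was above Alox5ap (5.95 ± 1.82 and 6.32 ± 2.40 CPM per kilobase) within each of the 6 libraries, although their ranges over libraries overlapped. Alox5ap was above Ptger2 (4.11 ± 0.696 and 3.99 ± 0.753) in 5 of 6. Hpgds was the lowest of the tested genes at 1.98 ± 0.334 CPM per kilobase with TNFa and 2.86 ± 0.199 with PBS, with a mean over 6 libraries of 2.42, and 4.00 when divided by its longest transcript in place of all exons.

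Among the leukotriene receptors, Ltb4r1 encodes BLT1, the high-affinity receptor of leukotriene B4, which draws neutrophils and effector T cells towards that lipid. The gene is on chromosome 14 of mm10, positions 55765962 to 55768494, plus strand, and its exons overlap no other annotated gene. It had 399, 422 and 413 CPM in TNFa replicates 4, 5 and 6, against 558, 574 and 486 CPM in PBS replicates 1, 2 and 3. All 3 TNFa libraries lay below all 3 PBS libraries, and they lay close to one another. The level with TNFa was 0.76 times that with PBS (95% interval 0.65 to 0.89; log2 fold change -0.39 ± 0.10, SE, edgeR adjusted p = 0.29, unadjusted p = 0.0030). Its low-affinity relative Ltb4r2, which ends 823 bases before Ltb4r1 begins, was listed at 1.46 ± 0.737 CPM with TNFa and 1.04 ± 0.0776 with PBS (log2 fold change 0.50 ± 0.52, edgeR adjusted p = 0.84).

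Cysltr1 encodes a receptor for the cysteinyl leukotrienes, with leukotriene D4 as its preferred ligand, and is the target of montelukast. It lies on chromosome X, 106574346 to 106603679, minus strand. Its level was 388, 350 and 365 CPM in TNFa replicates 4, 5 and 6, against 405, 366 and 444 CPM in PBS replicates 1, 2 and 3. The groups overlapped, PBS replicate 2 lying among the TNFa libraries. The ratio of TNFa to PBS was 0.91 (95% interval 0.77 to 1.07; edgeR adjusted p = 0.77). The second receptor of these lipids, Cysltr2, had 42.9 ± 6.56 CPM with TNFa and 45.9 ± 8.60 with PBS (edgeR adjusted p = 0.92), and its mean over 6 libraries was 15.5 CPM per kilobase, against 75.1 for Cysltr1.

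Ptgir, Ptger4 and Ptger2 couple to the stimulatory G protein. Ptgir, the prostacyclin receptor (chromosome 7, 16906490 to 16910905, plus strand), had 173, 110 and 140 CPM in TNFa replicates 4, 5 and 6, against 183, 155 and 158 CPM in PBS replicates 1, 2 and 3. TNFa replicate 4 lay within the PBS range and the other 2 TNFa libraries below it. The log2 fold change was -0.23 ± 0.16 (edgeR adjusted p = 0.75). It depended on which TNFa library was present, with -0.40 without replicate 4 and -0.08 without replicate 5.

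Ptger4 and Ptger2 encode EP4 and EP2, the receptors through which prostaglandin E2 raises cyclic AMP. Ptger4 (chromosome 15, 5206661 to 5244187, minus strand) was at 93.8, 68.6 and 83.1 CPM in TNFa replicates 4, 5 and 6, against 88.4, 98.9 and 89.1 CPM in PBS replicates 1, 2 and 3. Ptger2 (chromosome 14, 44988195 to 45003820, plus strand) was at 21.6, 17.6 and 24.8 CPM in the same TNFa libraries, against 16.2, 22.7 and 23.3 CPM in the PBS libraries. Both pairs of groups overlapped. The ratio of TNFa to PBS was 0.89 for Ptger4 (95% interval 0.72 to 1.10, edgeR adjusted p = 0.78) and 1.03 for Ptger2 (0.75 to 1.41, adjusted p = 0.97). Ptger4 shares 1015 exon bases, 15.3% of its own, with the processed pseudogene Gm15937, which took at most 16.9 counts in any library. Ptger2 shares 4.74% of its exon bases with the antisense gene Gm17173, which took 6.89 to 84.1 counts.

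Ptgdr2 encodes CRTH2 (DP2), the receptor that brings ILC2s and other type 2 cells towards prostaglandin D2. It was listed at 0 counts in all 3 TNFa libraries, against 9.18, 11.2 and 0 counts in PBS replicates 1, 2 and 3, or 0, 0 and 0 CPM against 0.313, 0.380 and 0 CPM. The groups overlapped at 0, so no fold change is given, and the gene had too few counts to be tested. A count of 0 allows up to 3 counts, 0.0908 to 0.119 CPM in these libraries, for counting error only, and an exact 0 in estimated counts can also arise from how reads are divided between genes. Such a division is possible here, because Ptgdr2 (chromosome 19, 10937160 to 10942511, plus strand) shares 1031 of its 2644 exon bases with Ccdc86, a gene on the opposite strand that received 1229 to 1812 counts per library. The other 61.0% of its exon bases overlap no annotated gene. Whether counting used strand is not given in the sources used here, and the part of the overlap in the low value was not tested. Ptgdr, the gene of the other prostaglandin D2 receptor DP1, had no row in the table analysed here.

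On the side of synthesis, Alox5 encodes 5-lipoxygenase, the enzyme that begins the making of every leukotriene (chromosome 6, 116410077 to 116461178, minus strand). It was at 41.0, 30.9 and 44.2 CPM in TNFa replicates 4, 5 and 6, against 61.3, 52.4 and 66.8 CPM in PBS replicates 1, 2 and 3. The groups were apart, with the highest TNFa library below the lowest PBS library. The ratio was 0.64 (95% interval 0.50 to 0.83; log2 fold change -0.64 ± 0.17, SE, edgeR adjusted p = 0.30, unadjusted p = 0.0034). DESeq2, run on the same genes, called it lower with an adjusted p of 0.034, a call it made for 0.792% of all genes with an adjusted p. Its own further filter left 13887 genes with an adjusted p, against 15719 in edgeR. With edgeR the adjusted p ranged from 0.18 to 0.72 over the scalings, filters and omitted libraries tried. Alox5 was the 1 member DESeq2 called, and Ltb4r1 came next, just over the threshold, with a DESeq2 adjusted p of 0.054.

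Alox5ap encodes FLAP, the membrane protein that hands arachidonic acid to 5-lipoxygenase (chromosome 5, 149264767 to 149288153, plus strand). It was at 9.44, 10.4 and 5.51 CPM in TNFa replicates 4, 5 and 6, against 7.36, 12.9 and 6.68 CPM in PBS replicates 1, 2 and 3. The groups overlapped, and the interval of the ratio was wide (0.94, 95% interval 0.56 to 1.58; edgeR adjusted p = 0.96). It shares 13.3% of its exon bases with an antisense gene, Gm19719, whose reads could not be told apart if counting ignored strand.

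Hpgds encodes haematopoietic prostaglandin D synthase, which makes prostaglandin D2 in mast cells and type 2 lymphocytes (chromosome 6, 65117293 to 65144908, minus strand). It was at 15.2, 11.3 and 11.7 CPM in TNFa replicates 4, 5 and 6, against 19.8, 17.4 and 17.9 CPM in PBS replicates 1, 2 and 3. Every TNFa library was below every PBS library. The ratio was 0.69 (95% interval 0.52 to 0.93; log2 fold change -0.53 ± 0.19, SE, edgeR adjusted p = 0.47, unadjusted p = 0.020).

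Across the list, 7 of the 8 tested genes had lower means with TNFa, with a median log2 fold change of -0.20, beside a median of 0.00 over all tested genes and 49.4% of them lower. Ltb4r1, Alox5 and Hpgds, 3 of the 8, had groups without overlap and were lower, beside 8.35% of all tested genes. The same 3 had an unadjusted p under 0.05 and were lower, beside 4.63% of all tested genes; limma-voom, like edgeR, called 0 of the 8. TNFa replicate 5 was the lowest of the 6 libraries for 5 of the 8 genes. Without it Ltb4r1, Alox5 and Hpgds had log2 fold changes of -0.41, -0.50 and -0.45. Without TNFa replicate 4 there were 6 genes without overlap, all lower, beside 13.4% of all tested genes. In bulk RNA, fewer cells of a type and less transcript per cell cannot be told apart.

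**Figure D2:**
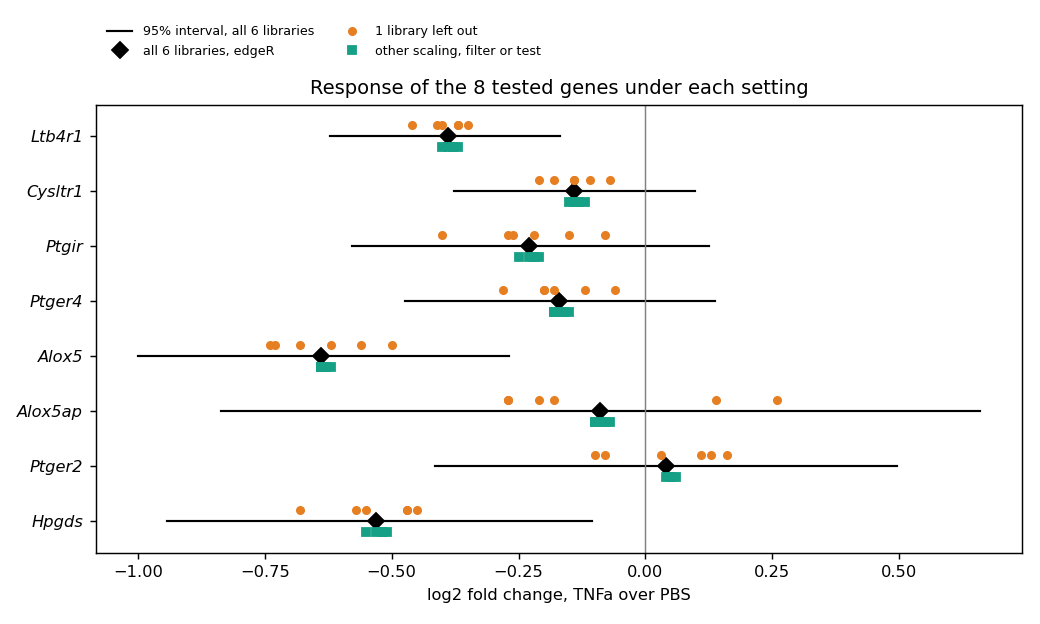
Log2 fold change of TNFa over PBS (x axis) for the 8 tested genes, ordered by level per kilobase. Diamonds with 95% intervals are the edgeR fit on all 6 libraries, circles leave 1 library out and squares use another scaling, filter or test. Ltb4r1, Alox5 and Hpgds stay below 0 at every setting, while Ptger2 and Alox5ap cross 0 when single libraries are left out.

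The stretches of 250 bases just before the RefSeq starts of the 3 genes without overlap are given for the genes whose values lay apart. They run 5′ to 3′ on the strand of the gene (GRCm38.p6). Capitals mark the GC box letters GGGCGG, read on both strands. For Ltb4r1 (chr14:55765712-55765961, plus strand) and Alox5 (chr6:116461179-116461428, minus strand) the RefSeq start is the start annotated by GENCODE. For Hpgds (chr6:65144731-65144980, minus strand) it lies 178 bases inside the gene as annotated by GENCODE. The last 178 bases of the Hpgds window are therefore within that gene, and only the rest lies before its GENCODE start.
Ltb4r1: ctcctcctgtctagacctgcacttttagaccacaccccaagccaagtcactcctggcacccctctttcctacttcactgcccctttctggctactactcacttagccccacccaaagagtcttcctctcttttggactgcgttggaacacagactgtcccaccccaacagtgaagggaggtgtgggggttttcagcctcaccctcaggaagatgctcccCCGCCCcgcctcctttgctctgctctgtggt
Alox5: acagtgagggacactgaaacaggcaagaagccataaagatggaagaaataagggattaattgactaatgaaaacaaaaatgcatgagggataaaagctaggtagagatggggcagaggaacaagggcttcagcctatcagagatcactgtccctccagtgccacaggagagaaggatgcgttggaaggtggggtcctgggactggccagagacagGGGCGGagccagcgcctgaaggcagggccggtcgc
Hpgds: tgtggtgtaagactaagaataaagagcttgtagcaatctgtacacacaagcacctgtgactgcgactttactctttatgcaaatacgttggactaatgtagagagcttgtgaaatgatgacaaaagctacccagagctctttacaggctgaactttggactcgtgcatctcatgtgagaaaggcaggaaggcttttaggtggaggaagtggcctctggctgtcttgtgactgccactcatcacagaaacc
Ltb4r1 and Alox5 each held 1 GC box close to the start, 31 and 35 bases before it, and Hpgds held none in this window; 32.7% of 32851 such windows in the RefSeq table held one. The 3 windows held no TGATAA or AGATAA, the core letters read by GATA factors (16.6% of all windows held one on either strand), and no TGACTCA, the AP-1 site (4.46%). A match or its absence is a description of these letters only.

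Genes next to the members in the 2 pathways were described with lists chosen with earlier results of these data known. Of 89 listed genes 79 were in the table and 73 were tested, the members included. None of the 73 passed in edgeR, and an unadjusted p under 0.05 was reached by 13, 10 lower and 3 higher, or 17.8%, beside 8.31% of all tested genes. Means were lower with TNFa for 49 and higher for 24, with a median log2 fold change of -0.15. DESeq2 called Alox5 alone among them.

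In the list of leukotriene and lipoxygenase synthesis, 10 of 13 tested genes had lower means, with a median of -0.37. Its most abundant genes beside Alox5 were Cotl1, a coactosin-like protein known to bind 5-lipoxygenase (126 ± 22.2 CPM with TNFa and 164 ± 19.9 with PBS, edgeR adjusted p = 0.51), Lta4h, which makes leukotriene B4 (124 ± 2.20 and 133 ± 17.5 CPM, adjusted p = 0.87), and Abcc1, which exports leukotriene C4. Abcc1 went the other way, at 96.6 ± 6.78 CPM with TNFa and 78.5 ± 9.10 with PBS (adjusted p = 0.55). Ltc4s, leukotriene C4 synthase, the enzyme that commits the path to cysteinyl leukotrienes, was listed at 0.0395, 0 and 0.494 CPM in TNFa replicates 4, 5 and 6, against 0, 0.374 and 0.0317 CPM in PBS replicates 1, 2 and 3, too little to test. It was named for its place in the path after its values were seen.

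Of 15 tested genes of prostanoid synthesis and removal, 7 had higher and 8 lower means with TNFa, with a median of -0.08. The most abundant were Ptges3 (p23, a chaperone partner also known as cytosolic prostaglandin E synthase; 320 ± 26.7 CPM with TNFa and 273 ± 17.7 with PBS, edgeR adjusted p = 0.61), Akr1b3 (223 ± 20.4 and 240 ± 12.9 CPM), Ptgr2 (50.9 ± 4.77 and 43.9 ± 2.80 CPM) and the transporter Abcc4 (28.1 ± 5.62 and 30.5 ± 3.55 CPM). Both cyclooxygenase genes were scarce, with Ptgs1 at 1.82 ± 0.253 CPM with TNFa and 2.47 ± 0.852 with PBS and Ptgs2 at 4.46 ± 3.00 and 3.81 ± 1.65 CPM. The inducible prostaglandin E synthase Ptges was higher in every TNFa library than in any PBS library, at 15.5 ± 3.22 CPM against 10.2 ± 1.78 (log2 fold change 0.60 ± 0.23, edgeR adjusted p = 0.51). Ptgr2 was also higher without overlap (log2 fold change 0.21 ± 0.13, edgeR adjusted p = 0.73). The share of all tested genes that were higher without overlap was not computed. Ptgr1 was lower without overlap, at 12.4 ± 0.485 CPM with TNFa and 17.5 ± 2.97 with PBS (log2 fold change -0.49 ± 0.19, edgeR adjusted p = 0.52). Of all tested genes, 8.35% were lower without overlap. At an unadjusted edgeR p under 0.05 this list of 15 had 1 gene higher, Ptges, and 2 lower, Ptgr1 and the member Hpgds. Of all tested genes, 8.31% reached that p in either direction and 4.63% did so with lower values. Ptgs1, Ptgs2, Ptges and Ptgr1 were named after their values were seen.

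**Figure D3:**
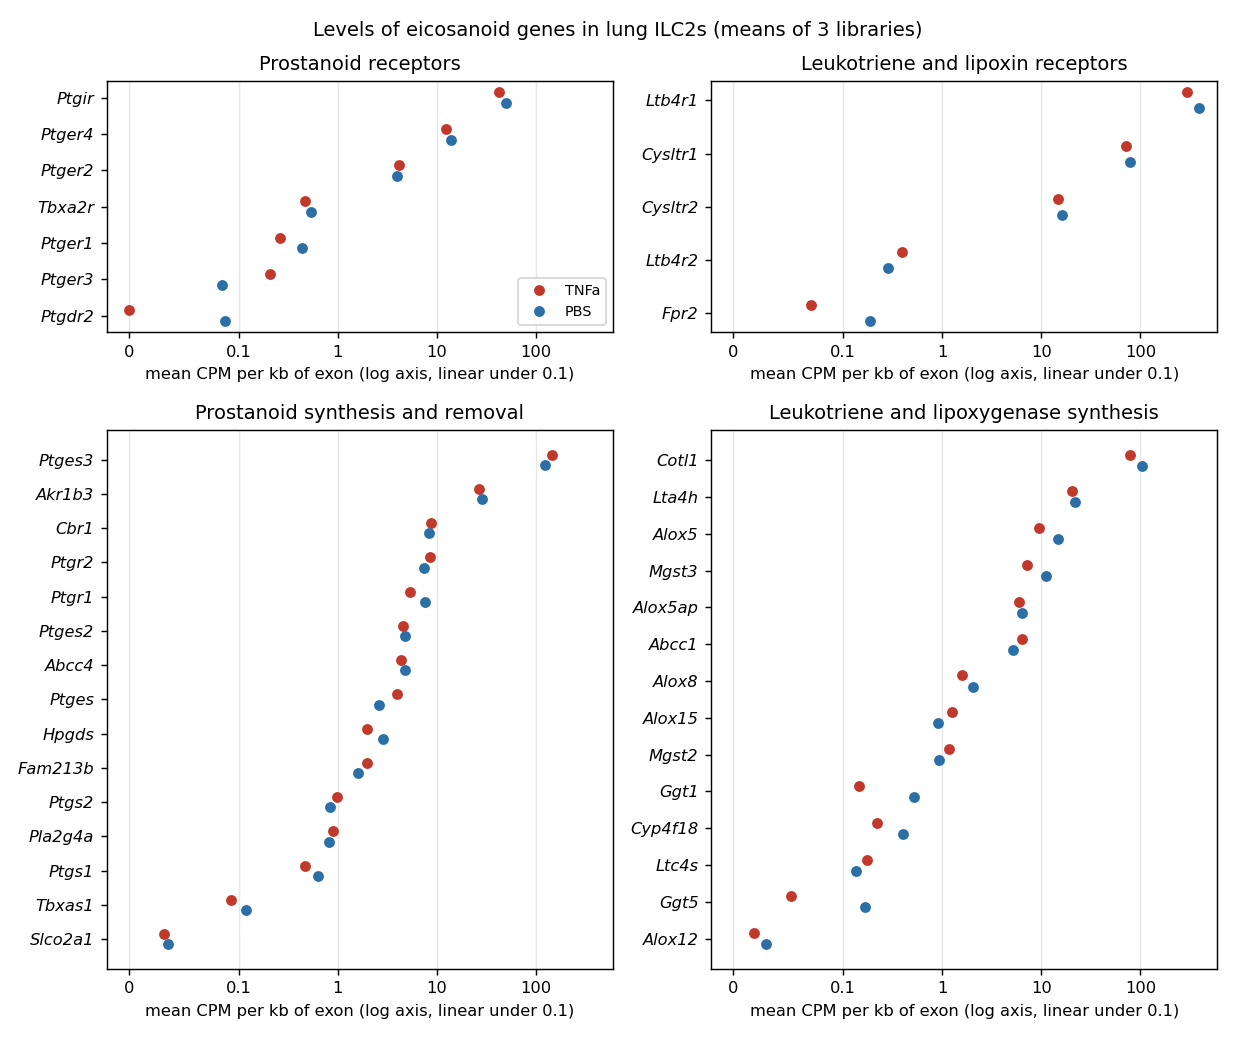
Mean level in CPM per kilobase of exon (x axis, logarithmic above 0.1 and linear below) of the genes of 4 eicosanoid lists with a known length, for TNFa (red) and PBS (blue), each a mean of 3 libraries. Ltb4r1, Cysltr1 and Ptgir stand above the other receptors, and Ptgdr2 is at the bottom of its panel.

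The remaining prostanoid receptors were near the lower limit: the most abundant of them by CPM, Ptger1 (EP1), had 1.43 ± 0.788 CPM with TNFa and 2.37 ± 0.307 with PBS. In all, 4 of the 6 tested prostanoid receptors had lower means, and 3 of the 4 tested leukotriene and lipoxin receptors, with medians of -0.20 and -0.12. Among G proteins and cyclic AMP genes that act after these receptors, 20 of 26 tested had lower means, with a median of -0.21. The most abundant were the inhibitory G protein subunit Gnai2 (799 ± 53.9 CPM with TNFa and 939 ± 79.0 with PBS, edgeR adjusted p = 0.59), the protein kinase A subunit Prkar1a (731 ± 19.7 and 813 ± 31.2 CPM, adjusted p = 0.71), Rgs1 (576 ± 65.6 and 602 ± 84.1 CPM) and the receptor kinase Grk2 (320 ± 26.5 and 364 ± 40.2 CPM). Of 10 tested lipases that release arachidonic acid or related lipids, 6 had higher means with a median of 0.20. The most abundant of these were Pla2g12a, a secreted phospholipase (65.9 ± 12.8 CPM with TNFa and 46.1 ± 2.97 with PBS, adjusted p = 0.39), Daglb, Pla2g7 and Pla2g6.

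**Figure D4:**
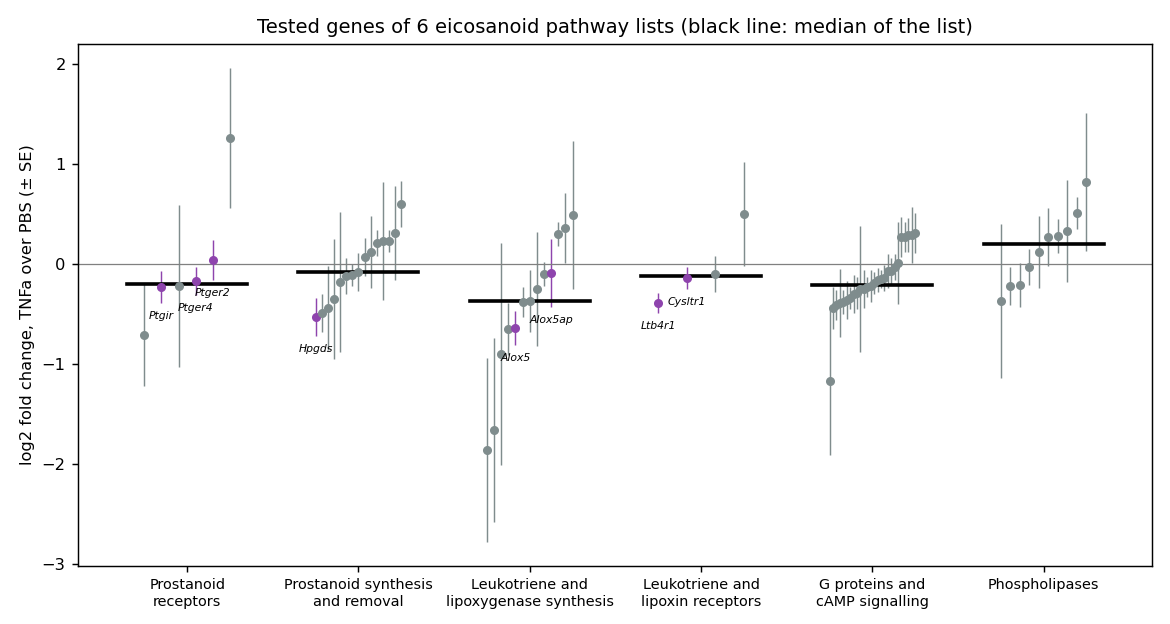
Log2 fold change of TNFa over PBS with SE (y axis) for the tested genes of 6 lists (x axis), in rising order within each list. Purple points are members, grey points other genes and black lines the medians, which run from -0.37 for leukotriene and lipoxygenase synthesis to 0.20 for the phospholipases.

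Markers of other cells that express these genes were measured beside them. Mast cells are known to make Hpgds, Alox5 and Ltc4s. The summed level of 10 mast cell markers, all 10 detected, ran from 1379 to 1567 CPM with TNFa and from 1329 to 1464 CPM with PBS, led by Tpsab1 (763 ± 53.5 and 703 ± 66.0 CPM) and Cma1 (226 ± 16.5 and 218 ± 28.5 CPM). Their median log2 fold change was 0.04, with 6 higher and 4 lower, among the lower ones Kit (71.4 ± 28.7 CPM with TNFa and 102 ± 15.1 with PBS, edgeR adjusted p = 0.68) and Hdc (10.9 ± 0.786 and 14.2 ± 1.70 CPM, adjusted p = 0.66, without overlap between groups). The part of mast cells in the lower Hpgds and Alox5 values was not tested. Markers of macrophages, monocytes and neutrophils, which are rich in Ltb4r1 and Alox5, summed to 15.1 to 55.0 CPM with TNFa and 41.9 to 99.5 CPM with PBS, with 9 of 10 in the table. Their median log2 fold change was -0.53, 5 of the 8 tested having lower means, and the most abundant were Chil3 (18.1 ± 16.8 CPM with TNFa and 32.4 ± 21.4 with PBS) and Lyz2 (8.63 ± 5.02 and 16.3 ± 6.73 CPM). Of the neutrophil genes, S100a8 was at 1.24 ± 0.419 CPM with TNFa and 1.06 ± 0.0766 with PBS, and S100a9 at 0.187 ± 0.199 and 0.787 ± 0.367 CPM, without overlap. The part of these cells in the lower Ltb4r1 and Alox5 values was not tested. The 6 eosinophil genes, which in that cell go with Ptgdr2 and Alox5, summed to 3.66 to 57.9 CPM with TNFa and 4.36 to 9.27 CPM with PBS. Among them Prg2 and Ccr3 were the most abundant tested, and Epx was at 6.64, 17.2 and 0 CPM in TNFa replicates 4, 5 and 6 and at 0 CPM in all 3 PBS libraries. Of the 3 tested eosinophil genes 1, Prg2, had a higher mean with TNFa (log2 fold change 4.14 ± 2.29, SE, edgeR adjusted p = 0.72). Prg2 was at 13.1, 35.5 and 0 CPM in TNFa replicates 4, 5 and 6, against 0, 2.76 and 0 CPM in PBS replicates 1, 2 and 3. The 2 with lower means had group means of at most 4.70 CPM. The median log2 fold change of the 3 was -0.53. Of 15 ILC2 markers 10 were lower with TNFa, with a median of -0.23, and the most abundant, Il5 and Il2ra, had higher means (log2 fold changes 0.27 ± 0.10 and 0.28 ± 0.11, edgeR adjusted p = 0.51 and 0.53). Icos was the 1 that passed (517 ± 33.1 CPM with TNFa and 888 ± 69.0 with PBS, edgeR adjusted p = 0.036).

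Summed markers of the other lists were lower with TNFa for T cells (106 to 109 CPM with TNFa and 124 to 143 CPM with PBS), B cells (13.8 to 16.5 and 20.2 to 20.6 CPM) and NK cells (14.9 to 22.7 and 37.6 to 67.8 CPM). They overlapped between groups for basophils (60.3 to 66.9 and 63.4 to 73.8 CPM) and structural cells (142 to 198 and 119 to 153 CPM). The leading genes of these lists were Cd3g and Foxp3, Cd79b and Ms4a1, Gzma and Ncr1, Mcpt8 and Fcer1a, and Pecam1 and Scgb1a1, and no member of the 5 lists passed in edgeR. Gzma held most of the NK sum, with means of 13.4 CPM with TNFa and 50.4 CPM with PBS (log2 fold change -1.92 ± 0.32, SE, edgeR adjusted p = 0.088). Ncr1 differed in the other direction, at 2.98 ± 0.776 CPM with TNFa and 1.27 ± 0.475 with PBS (log2 fold change 1.23 ± 0.45, adjusted p = 0.48), without overlap. In the structural list 3 of the 4 tested genes had higher means with TNFa. The fourth, Epcam, was lower without overlap, at 14.2 ± 1.06 CPM with TNFa and 27.4 ± 1.59 with PBS (log2 fold change -0.95 ± 0.16, edgeR adjusted p = 0.088). The part of the cells of these lists in the values of the 9 genes was not tested.

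Over the 6 libraries, the genes whose log2 CPM followed Ltb4r1 most closely among 8748 tested genes of at least 10 CPM were Creb3l2 (Pearson r = 0.998), Rnf166 (0.993) and Mlycd (0.992), with log2 fold changes of -0.26, -0.45 and -0.58. Those closest to Cysltr1 were Tor1aip1 (0.983), Clcn7 (0.975) and Lrrc57 (0.965). These correlations rest on 6 libraries in 2 groups that share their depth and scaling, and they are descriptions of the best matches among many genes.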

How the data were processed

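The deposited values are unscaled estimated counts from Partek, per the file headers and name, whose expectation-maximization step divides reads that match several genes and so yields fractions. CASAVA 1.8.2, STAR and the build mm10 are named in the submitters' processing notes, without role or order. Annotation release and strand use: not given in the sources used here. Exon lengths and overlaps came from GENCODE M21, of the same build, matched by symbol. After rounding, the estimated counts went into edgeR 4.0.16 (R 4.3.3): filterByExpr (minimum count 10, minimum total 15, leaving 15719 of 21825 genes), TMM scaling, and the robust quasi-likelihood test of TNFa against PBS, with Benjamini-Hochberg adjustment over all tested genes and a threshold of 0.05. SEs and 95% intervals come from the fold change and its F statistic. The method was tested on simulated data. CPM are TMM-scaled; per kilobase means divided by the union of exons. Alternatives were DESeq2 1.42.0, limma-voom (limma 3.58.1), other scalings and filters, and each library left out. Precision rests on 3 libraries per group; floors cover counting error only.

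Genes named were all members, up to 4 of the most abundant tested genes per pathway list, 2 markers per other cell type and the 3 genes most correlated with each of the 2 most abundant members. Gata3, Il1rl1, Tcf7, Icos, S100a8, S100a9, Epx, Kit, Hdc and Epcam, and genes so marked in the text, were chosen outside this rule after their values were seen. Members and lists were chosen with earlier results of these data known. RefSeq promoter sequences were found for 7 of 9 members.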

Additional observations from a re-analysis of the deposited data

How the results depend on the processing

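The count of 16 genes past the threshold over all genes became 3 with no filter on low counts, 25 with a filter of 5 CPM in 3 libraries and 218 with DESeq2. With 1 library left out it ran from 1 to 67: TNFa replicate 4 gave 3, replicate 5 gave 67 and replicate 6 gave 5, while PBS replicate 1 gave 1, replicate 2 gave 3 and replicate 3 gave 2. The cause of these changes was not tested. Leaving 1 library out also lowers the number of libraries, and the filters also change the number of genes tested. Of the 9 eicosanoid genes, and of the pathway lists that hold them, DESeq2 called 1, Alox5, with a log2 fold change of -0.63; every other setting called 0. Directions of Ltb4r1, Cysltr1, Ptgir, Ptger4, Alox5 and Hpgds held in all 11 alternatives, from -0.46 to -0.35 for Ltb4r1, -0.74 to -0.50 for Alox5 and -0.68 to -0.45 for Hpgds. Ptger2 turned to -0.10 without PBS replicate 1 and -0.08 without TNFa replicate 6 (range with 1 library left out -0.10 to 0.16), and Alox5ap to 0.26 without PBS replicate 2 and 0.14 without TNFa replicate 6 (range -0.27 to 0.26). Dividing by the longest transcript in place of all exons moved Ptger4 to 23.1, Ptger2 to 5.71 and Hpgds to 4.00 CPM per kilobase, because these have more exon bases than any single transcript. No paired analysis was possible because the groups share no replicate number. The counts of genes without overlap and at an unadjusted p were added after seeing the data. Ptgdr2 and Ltc4s had too few counts to be tested.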
